A study of Mus musculus with 18 samples.

Results

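The genes of the proteasome, the protease complex that degrades ubiquitin-tagged proteins, were followed in mouse liver after changes of YAP in hepatocytes and of diet. They were taken as every gene on the panel whose symbol starts with Psma, Psmb, Psmc, Psmd, Psme, Psmf or Psmg, which gave 45 of 23930 listed genes. Of these, 43 passed the filter on low values (at least 1 CPM, the reads of a gene after scaling every library to the same total, in at least 3 libraries), as did 11720 genes in all. All mice carried floxed Yap alleles (Yap fl/fl), the controls included, and were injected when 8 weeks old with an adeno-associated virus whose TBG promoter is active in hepatocytes. The control mice received AAV-TBG-GFP and the overexpression mice AAV-TBG-YAP-P2A-EGFP, each at a dose of 2 in units of 10 to the 11th genome copies per mouse. The knockout mice received AAV-TBG-Cre at a dose of 0.5 in the same unit, so that virus dose and genotype cannot be told apart in the comparisons of knockout with control. After 2 weeks the mice had 5 days of acclimation to a Lieber-DeCarli control diet, followed by 4 weeks of ethanol diet or control diet (pair-fed). They were killed 9 hours after a single gavage, which held ethanol at 5 g/kg (33% v/v) for the ethanol-fed mice and maltose-dextrin for the others. The 6 groups had 3 libraries each. The labels give no sex and do not tie the libraries to separate animals, so a p-value here compares differences with the spread among libraries alone. The title of the series names stress of the endoplasmic reticulum and the factor ATF6.

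The 26S proteasome consists of a barrel-shaped 20S core and a 19S cap. Rings of alpha subunits gate the core, and the beta subunits Psmb5, Psmb6 and Psmb7 carry its proteolytic sites. The ATPases of the cap (the Psmc genes) unfold substrates, while some of its Psmd subunits bind or remove ubiquitin. After interferon, cells can place the inducible subunits Psmb8, Psmb9 and Psmb10 at the sites of Psmb5, Psmb6 and Psmb7, which gives the immunoproteasome, and Psme1 and Psme2 form an activator that docks on the core. Immune cells hold these inducible subunits at higher levels than most other cells, and in the liver they cut peptides for display on class I molecules. Among the 43 tested genes were 11 of the core, 17 of the cap, 6 assembly chaperones, 4 immunoproteasome genes, 3 other activators or inhibitors (Psme3, Psme4 and Psmf1), the Psme2 copy Psme2b, and Psma8. Psma8, a core subunit of the testis, just passed the filter with 0.174 to 2.17 CPM. Below the filter were Psmb11, the core subunit of the thymus, with 1 library above 0, and Psmc3ip, which shares the first letters of a cap ATPase but is a partner in meiotic recombination. Psma3, Psma5, Psmb5, Psme2 and Psmg3 were not analysed here, and reads of Psme2 and Psme2b may not be told apart, so that Psme2b is uncertain.

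The sequences upstream of the inducible catalytic genes are shown because these genes had the largest changes. Psmb8 and Psmb9 lie on chromosome 17 (GRCm38.p6, RefSeq), where Psmb9 (chr17:34182030-34187330, minus strand) and Tap1, a subunit of the peptide transporter (chr17:34187556-34197225, plus strand), start 226 bases apart and are read in opposite directions. Psmb8 (chr17:34198195-34201454, plus strand) follows Tap1, and Psmb10 lies apart from them at chr8:105935728-105938392, minus strand. Each sequence is the 250 bases before the annotated start, read 5′ to 3′ on the strand of the gene, with motif matches in capitals; the window of Psmb9 reaches past the start of Tap1. The windows are chr17:34197945-34198194 for Psmb8, chr17:34187331-34187580 for Psmb9 and chr8:105938393-105938642 for Psmb10.
Psmb8: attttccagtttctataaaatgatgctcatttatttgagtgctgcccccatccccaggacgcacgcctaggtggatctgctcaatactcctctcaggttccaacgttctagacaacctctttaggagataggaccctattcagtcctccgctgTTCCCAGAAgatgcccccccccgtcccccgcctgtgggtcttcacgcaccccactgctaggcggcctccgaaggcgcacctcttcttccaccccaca
Psmb9: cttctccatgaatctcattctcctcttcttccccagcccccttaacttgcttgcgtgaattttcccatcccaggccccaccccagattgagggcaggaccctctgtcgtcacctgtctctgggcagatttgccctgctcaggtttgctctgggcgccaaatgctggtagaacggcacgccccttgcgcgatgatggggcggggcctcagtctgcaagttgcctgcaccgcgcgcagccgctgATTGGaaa
Psmb10: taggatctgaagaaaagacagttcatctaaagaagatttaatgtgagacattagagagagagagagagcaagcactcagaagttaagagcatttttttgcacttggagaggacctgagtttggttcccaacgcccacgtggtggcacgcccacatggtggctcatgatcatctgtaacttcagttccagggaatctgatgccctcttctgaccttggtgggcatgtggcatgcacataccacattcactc
The Psmb8 window held a match to a gamma-activated sequence, 97 to 89 bases before the start, and the Psmb9 window held a CCAAT box on the opposite strand, 8 to 4 bases before the start. None of the 5 motifs was found in the Psmb10 window.

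RefSeq sequences were matched for 37 of the 45 genes and searched on both strands. An interferon-stimulated response element (GAAA, NN and again GAAA) was found upstream of 3 genes, Psmb3, Psmd4 and Psmd9, which is 8.11% against 3.04% of all 27025 promoters. A gamma-activated sequence (TTCNNNGAA, which reads alike on both strands) was upstream of 2 genes, Psmb8 and Psmg1 (5.41% against 7.18%). An antioxidant response element (TGACNNNGC) was upstream of 4 genes, Psmb6, Psmc6, Psmd12 and Psmd9 (10.8% against 10.1%). GGAATG, the motif of the TEAD factors through which YAP acts, was upstream of 2 genes, Psmd8 and Psmd9 (5.41% against 12.6%). The CCAAT box was upstream of 14 genes, or 37.8% against 34.5%. Matches of different motifs shared no base in these promoters. These are matches of letters alone.

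The libraries held 4.68 to 5.81 M reads. A single read was worth 0.172 to 0.214 CPM. A count of 0 allows up to 0.517 to 0.641 CPM (3 reads), which covers counting error only. Yap1 measured 51.5 to 66.6 CPM in control and 3.34 to 15.1 CPM in knockout libraries. It measured 106.4 to 214.1 CPM in 5 of the 6 overexpression libraries but 57.6 CPM in pair-fed overexpression 1, which lies within the control range and goes against its label. The X-linked Xist measured 348 to 423 CPM in 5 libraries, pair-fed control 2 and 3 and all 3 pair-fed knockout libraries, and at most 2.75 CPM in the other 13. The Y-linked Ddx3y measured 53.96 to 128.8 CPM in those 13 and at most 3.47 CPM in the 5. All 3 ethanol-fed knockout libraries were among the 13, so that in knockout mice diet and sex-chromosome pattern cannot be told apart. The ethanol-fed groups and both overexpression groups all belonged to the 13. The hepatocyte markers were at high levels in every group, with a summed level over 5 genes of 38627 to 81014 CPM.

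Inducible catalytic subunits were lower in ethanol-fed than in pair-fed knockout livers. Psmb8, which takes the site of Psmb5, fell 2.74-fold on the CPM scale, and Psmb10, which takes the site of Psmb7, fell 2.23-fold. The assembly chaperone Psmg4, which helps to build the alpha ring, rose 1.75-fold. These 3 were the genes called among the 43 tested (limma, Benjamini-Hochberg adjusted p under 0.05 over all genes tested), against 9.9% called among all genes, so the share of proteasome genes called was near the background.

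Psmb8 measured 80.8, 56.4 and 48.8 CPM in the pair-fed knockout libraries and 26.2, 28.02 and 13.6 CPM in the ethanol-fed ones. The groups did not overlap, and the 3 ethanol-fed knockout libraries were also lower than each of the 15 other libraries, whose lowest was 31.8 CPM. The change was -1.45 ± 0.26 on the log2(CPM + 1) scale (standard error, limma adjusted p = 0.00202). Psmb10 measured 57.5, 41.5 and 36.8 CPM in pair-fed and 20.3, 19.1 and 21.4 CPM in ethanol-fed knockout livers, again without overlap. Its change was -1.10 ± 0.23 (limma adjusted p = 0.0062). Unlike Psmb8, its ethanol-fed knockout values lay inside the range of the 15 other libraries, which went down to 13.8 CPM.

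The other immunoproteasome genes were not called. Psmb9, which takes the site of Psmb6, measured 16.1, 8.55 and 6.44 CPM in pair-fed and 5.13, 4.08 and 4.17 CPM in ethanol-fed knockout livers. Its groups did not overlap, but its change of -0.97 ± 0.34 missed the threshold (limma adjusted p = 0.0762). Psme1, the activator subunit, measured 128.1, 90.4 and 136.0 CPM and then 138.1, 105.6 and 132.7 CPM. These groups overlapped, with a change of 0.10 ± 0.18 and a 95% interval of -0.27 to 0.47. Psme2b measured 16.1, 13.5 and 15.7 CPM and then 13.4, 10.6 and 7.43 CPM (-0.52 ± 0.24, limma adjusted p = 0.180).

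**Figure D1:**
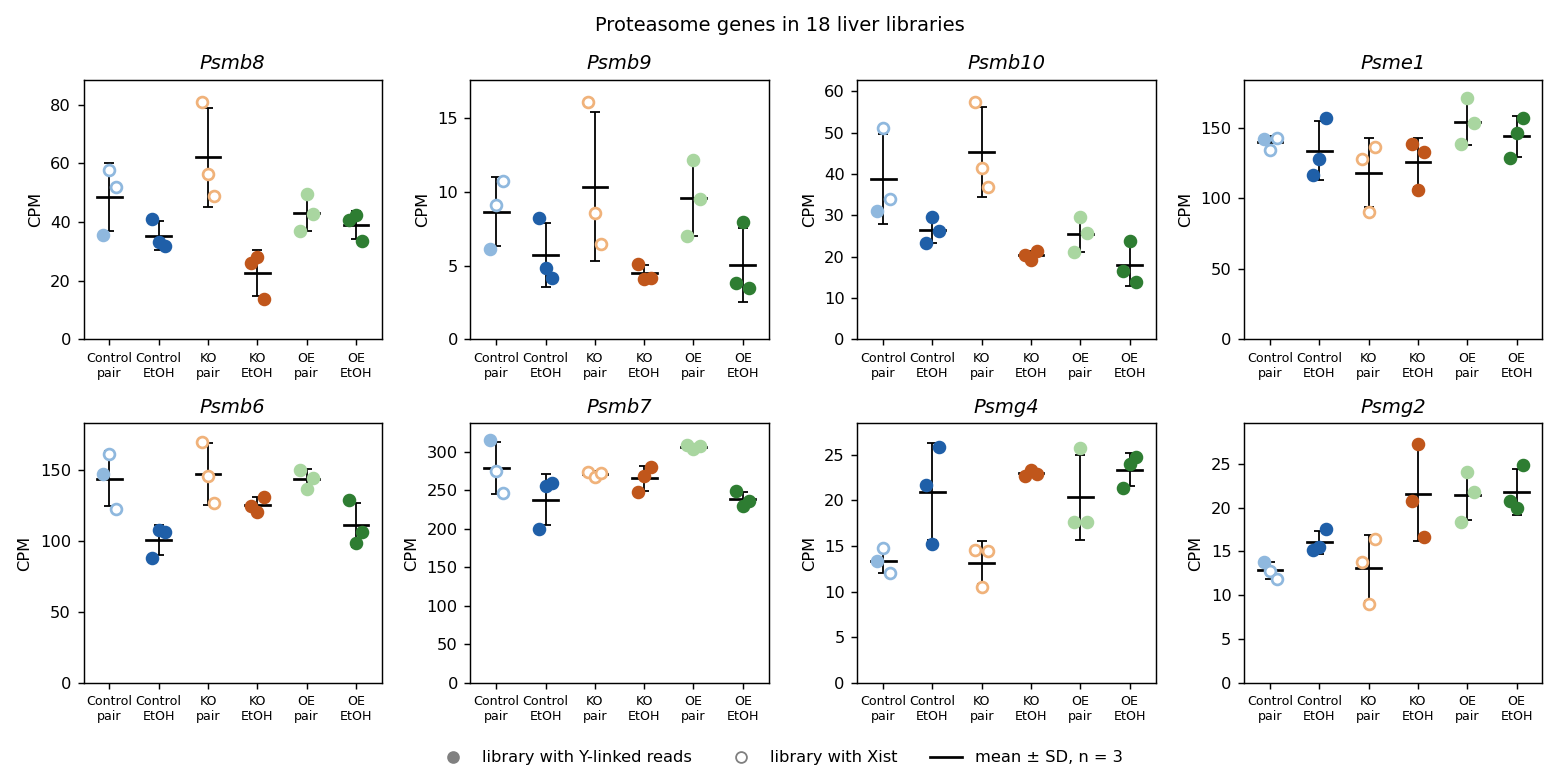
Level in CPM (y axis, from 0) of 8 proteasome genes in the 18 libraries, by group on the x axis (control, KO for knockout and OE for overexpression; pair for pair-fed and EtOH for ethanol-fed). Points are libraries, open where Xist was high, and bars are the mean ± SD of 3 libraries; Psmb8 in the 3 ethanol-fed knockout libraries sits at 13.6 to 28.0 CPM, lower than in the 15 others, while Psme1 overlaps between pair-fed and ethanol-fed livers of each genotype.

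Set against the constitutive subunit of the same site within each library, the inducible subunits were lower after ethanol in knockout mice too. The log2 level of Psmb10 minus that of Psmb7 had a mean of -2.58 ± 0.32 (SD, n = 3) in pair-fed and -3.65 ± 0.10 in ethanol-fed knockout livers. For Psmb9 minus Psmb6 the means were -3.79 ± 0.41 and -4.53 ± 0.16. Only differences of these values between libraries can be read, since each gene was measured by its own amplicon. The same differences were smaller in control livers, where Psmb10 minus Psmb7 moved from -2.84 ± 0.45 to -3.12 ± 0.12 and Psmb9 minus Psmb6 from -3.93 ± 0.49 to -3.95 ± 0.59. In overexpression livers they moved from -3.56 ± 0.25 to -3.68 ± 0.41 and from -3.80 ± 0.43 to -4.27 ± 0.69. Over pair-fed libraries, Psmb10 minus Psmb7 was -2.86 to -2.23 in the 5 with Xist and -3.82 to -3.31 in the 4 with Y-linked reads. The ethanol-fed knockout values, -3.75 to -3.55, lay inside the range of those 4. Of the 4, pair-fed control 1 stood at -3.31, higher than each of these values. The others were the pair-fed overexpression libraries, at -3.82 to -3.32. Psmb7 itself measured 247 to 275 CPM in the 5 and 304 to 315 CPM in the 4. Psmb9 minus Psmb6 overlapped, with -4.10 to -3.32 in the 5 and -4.38 to -3.38 in the 4. These values were not tested.

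The sex-chromosome pattern moved with this result. Over the pair-fed libraries, Psmb8 had a range of 48.8 to 80.8 CPM and a median of 56.4 CPM in the 5 with Xist. In the 4 with Y-linked reads its range was 35.5 to 49.4 CPM and its median 39.8 CPM, so that the 2 ranges overlapped slightly. Psmb10 had 34.04 to 57.5 CPM in the 5 and 21.01 to 30.98 CPM in the 4. Psmb9 also overlapped, with 6.44 to 16.1 CPM in the 5 and 6.13 to 12.2 CPM in the 4. The 5 were pair-fed control 2 and 3 and the pair-fed knockout libraries, and the 4 were pair-fed control 1 and the pair-fed overexpression libraries. Outside the controls, sex-chromosome pattern and genotype cannot be told apart in this split. With a term for the sex-chromosome pattern, whose size in this fit rests on pair-fed control 1 against pair-fed control 2 and 3, the change of Psmb8 in knockout mice was -0.84 (limma adjusted p = 0.711) and that of Psmb10 was -0.68 (adjusted p = 0.775). That fit called 0 of the 43 proteasome genes and 0 of all 11720. In ethanol-fed livers, where every library had Y-linked reads, Psmb8 was lower in each knockout library than in each control library but was not called, as given with the comparisons of genotype.

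Macrophage markers moved with it as well. Of 10 genes that mark Kupffer cells, the resident macrophages of the liver, and other macrophages, 9 were tested and 8 were called lower after ethanol in knockout mice, among them Cd5l (-1.36 ± 0.24, limma adjusted p = 0.00219), Clec4f, Vsig4 and Csf1r. Their summed level was 477 to 592 CPM in pair-fed and 166 to 213 CPM in ethanol-fed knockout livers, without overlap, and the median change of the 9 was -1.48. C1qa was at 0 in every knockout library. The ethanol-fed control and both overexpression groups also had 1 of the 10 markers at 0 in all 3 libraries. In control livers the sum was 435 to 495 CPM and then 280 to 552 CPM, and in overexpression livers 281 to 618 CPM and then 375 to 406 CPM; none of these markers was called in either. The 9 measured lymphocyte and natural killer cell markers summed to 12.6 to 15.5 CPM in pair-fed and 4.39 to 6.89 CPM in ethanol-fed knockout livers. Of these, 6 were tested and 1, Cd3g, was called (-1.03 ± 0.31, limma adjusted p = 0.0437). These markers are near the floor, and 2 of the 9 were at 0 in all 3 ethanol-fed knockout libraries. Hepatocyte markers summed to 62089 to 81014 CPM in pair-fed and 48922 to 61271 CPM in ethanol-fed knockout livers, without overlap. Of the 5 hepatocyte markers tested, 3 had negative and 2 positive changes in knockout mice, and 1 was called lower. In this comparison 9.9% of all genes tested were called. The part of these cells in the result was not tested, and in whole liver fewer cells of a type and less RNA per cell cannot be told apart.

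**Figure D2:**
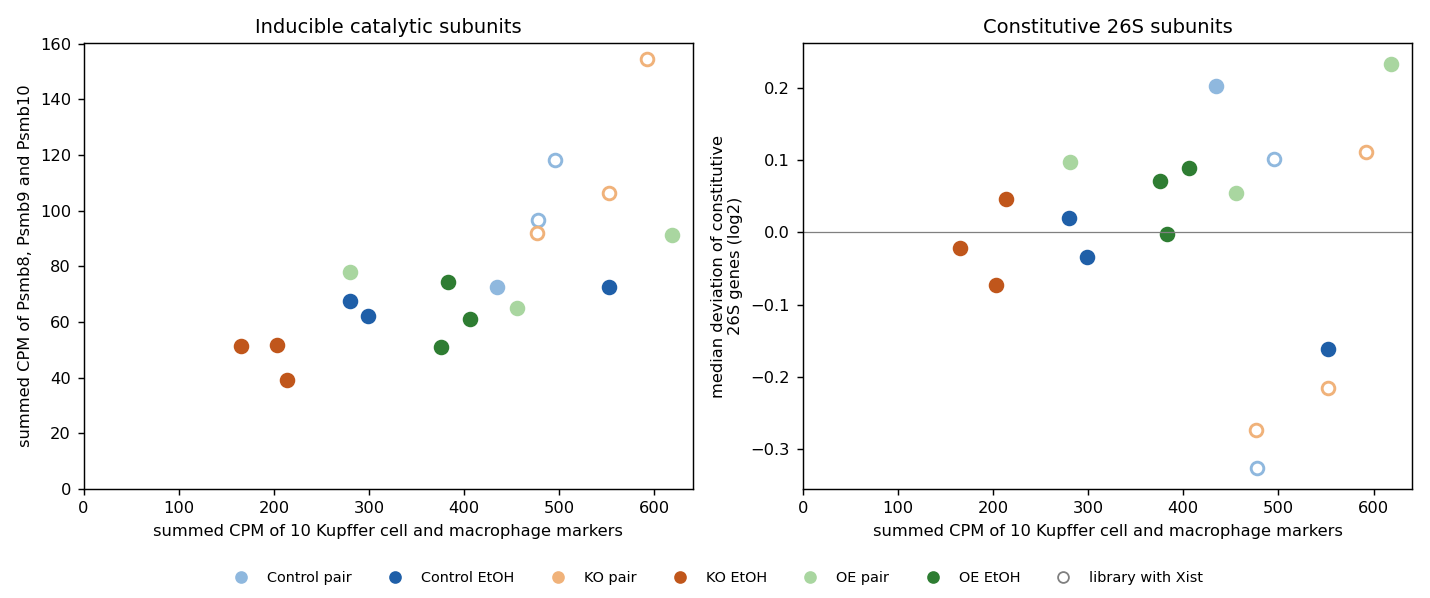
Left, summed CPM of Psmb8, Psmb9 and Psmb10 (y axis) against the summed CPM of 10 Kupffer cell and macrophage markers (x axis); right, the median deviation of the 28 constitutive core and cap genes from their own means over 18 libraries, on the log2(CPM + 1) scale. Points are libraries coloured by group, open where Xist was high. The 3 ethanol-fed knockout libraries lie lowest on both axes of the left panel except that 1 ethanol-fed overexpression library, at 50.8 CPM, falls among them on the y axis, and on the right they lie near 0.

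The constitutive subunits did not share the fall. After ethanol in knockout mice, 0 of the 28 core and cap genes were called (18 of them above 0, median 0.11, against -0.05 for all genes tested). Of the 28, 4 had an unadjusted p under 0.05, all higher, against 26.1% of all genes tested. For 27 of the 28 the 95% interval of the change lay within a 2-fold change in either direction. The median deviation of these 28 genes averaged -0.13 ± 0.21 (SD, n = 3) in pair-fed and -0.02 ± 0.06 in ethanol-fed knockout livers, a difference inside the spread. Psmb6 measured 169.7, 145.5 and 126.3 CPM and then 124.5, 119.9 and 130.7 CPM, and Psmb7 measured 273.7, 267.5 and 272.8 CPM and then 248.0, 268.7 and 279.8 CPM. Both constitutive catalytic subunits overlapped between the groups, with changes of -0.22 ± 0.16 and -0.03 ± 0.14.

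Among the 6 assembly chaperones, 5 had changes above 0 in knockout mice and 1 was called. Psmg4 measured 14.6, 10.5 and 14.5 CPM in pair-fed and 22.7, 23.4 and 22.8 CPM in ethanol-fed knockout livers, without overlap. Its change was 0.77 ± 0.21 (limma adjusted p = 0.0277). Unlike the inducible subunits, its value hardly moved with the sex-chromosome term (0.78), although the call was lost there (adjusted p = 0.704). The call was also lost in a fit to these 6 libraries alone (adjusted p = 0.0795) and without ethanol-fed knockout 1 (0.0745), ethanol-fed knockout 2 (0.0786) or pair-fed knockout 2 (0.129). Over all genotypes, Psmg4 had 10.5 to 14.8 CPM in pair-fed libraries with Xist and 13.3 to 25.7 CPM in those with Y-linked reads. Psmg2, the partner of Psmg1 in alpha ring assembly, measured 13.8, 8.97 and 16.4 CPM and then 20.7, 27.3 and 16.7 CPM (0.69 ± 0.22, limma adjusted p = 0.0562). Psmc5, a cap ATPase, measured 177.0, 110.5 and 146.3 CPM and then 245.6, 241.8 and 208.3 CPM (0.70 ± 0.23, limma adjusted p = 0.0627). Neither Psmg2 nor Psmc5 was called here, while edgeR on the reads called both beside Psmb8, Psmb10 and Psmg4.

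**Figure D3:**
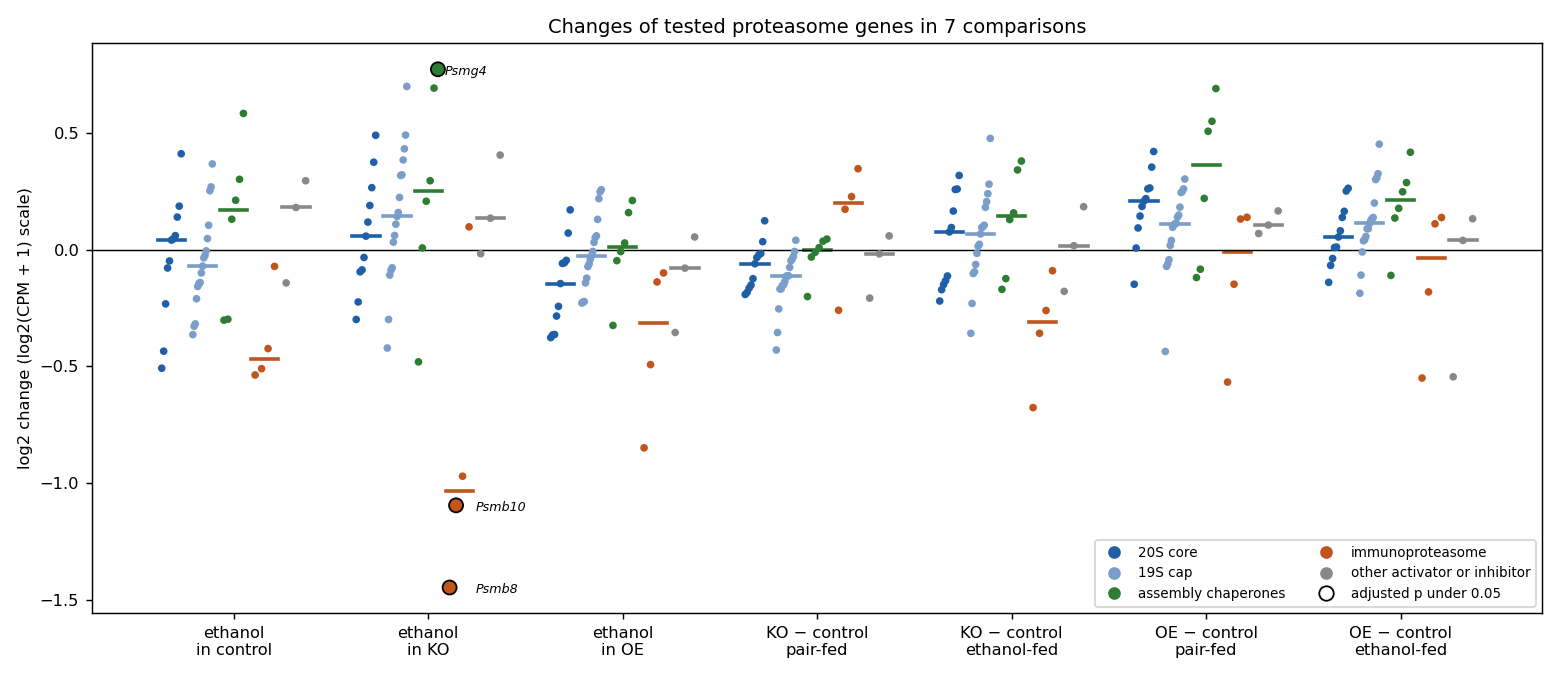
Change on the log2(CPM + 1) scale (y axis) of 41 tested proteasome genes, all but Psma8 and Psme2b, in the 7 comparisons of 2 groups (x axis), coloured by role (core, cap, assembly chaperones, immunoproteasome, other activator or inhibitor). Horizontal bars are medians of a role and black rings mark an adjusted p under 0.05, which only Psmb8, Psmb10 and Psmg4 reached, all after ethanol in knockout mice.

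In control livers ethanol changed no proteasome gene past the threshold. limma called 0 of the 43, against 2.7% of all genes, and edgeR also called 0. Of the 43, 5 had an unadjusted p under 0.05 (2 higher and 3 lower), against 18.1% of all genes. Psmb6 had the smallest p. It measured 147.0, 160.9 and 122.6 CPM in pair-fed and 88.01, 107.4 and 105.8 CPM in ethanol-fed control livers, without overlap (-0.51 ± 0.16, limma adjusted p = 0.0925). Psmg4 measured 13.3, 14.8 and 12.05 CPM and then 21.7, 15.3 and 25.9 CPM, every ethanol-fed value being the higher (0.58 ± 0.21, limma adjusted p = 0.153). Psma1, an alpha subunit of the core, measured 46.6, 55.8 and 41.1 CPM and then 32.1, 38.8 and 34.01 CPM (-0.43 ± 0.19, limma adjusted p = 0.245).

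The 3 inducible catalytic subunits all had negative, uncalled changes in control livers. Psmb8 measured 35.5, 57.8 and 51.8 CPM in pair-fed and 40.98, 33.2 and 31.8 CPM in ethanol-fed livers (-0.42 ± 0.26). The groups overlapped through pair-fed control 1, the pair-fed control library with Y-linked reads. Psmb9 measured 6.13, 9.12 and 10.7 CPM and then 8.20, 4.83 and 4.16 CPM (-0.54 ± 0.34), and Psmb10 measured 30.98, 51.1 and 34.04 CPM and then 23.3, 29.5 and 26.2 CPM (-0.51 ± 0.23). Among libraries with Y-linked reads alone, which leaves 1 pair-fed control, the changes were -0.02 for Psmb8, -0.13 for Psmb9, -0.23 for Psmb10 and -0.55 for Psmb6. Of the 28 constitutive genes 0 were called, their median change was -0.04 and the 95% intervals of all 28 lay within a 2-fold change.

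In overexpression livers, all with Y-linked reads, ethanol again changed no proteasome gene past the threshold. limma called 0 of the 43, against 1.15% of all genes, and edgeR called 0. Of the 43, 4 had an unadjusted p under 0.05, all lower, against 14.5% of all genes. Psmb7 measured 309.2, 304.3 and 307.5 CPM in pair-fed and 249.4, 229.5 and 236.0 CPM in ethanol-fed livers (-0.37 ± 0.14, limma adjusted p = 0.235). Psmb6 measured 149.8, 136.5 and 144.1 CPM and then 128.4, 98.5 and 105.7 CPM (-0.38 ± 0.16, limma adjusted p = 0.275). Neither of these constitutive catalytic subunits overlapped between the diets. Psmb9 measured 7.005, 12.2 and 9.53 CPM and then 3.79, 7.92 and 3.44 CPM (-0.85 ± 0.34, limma adjusted p = 0.249). Psmb10 measured 21.01, 29.6 and 25.7 CPM and then 16.6, 23.8 and 13.8 CPM (-0.49 ± 0.23), and Psmb8 measured 36.9, 49.4 and 42.7 CPM and then 40.6, 42.5 and 33.6 CPM (-0.14 ± 0.26). All 3 inducible subunits overlapped between the diets in these mice. Without pair-fed overexpression 1, the library with Yap1 at the control level, the change was -0.36 for Psmb7, -0.35 for Psmb6 and -1.03 for Psmb9, none called.

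The difference between knockout and control in the response to ethanol was not called for any proteasome gene. limma called 0 of 43, against 0% of all genes, and edgeR called 0. Only 1 of the 43 had an unadjusted p under 0.05, against 5.68% of all genes. That gene was Psmb8, with a difference of -1.02 ± 0.36 (limma adjusted p = 0.862) and a 95% interval of -1.78 to -0.27. The difference was -0.59 ± 0.33 for Psmb10 and 0.60 ± 0.33 for Psmc5, whose 95% intervals included 0. The call of Psmb8 in knockout mice and its absence in control mice are therefore not shown to differ after adjustment over all genes. For the difference between overexpression and control, limma also called 0 of 43, against 0% of all genes, and edgeR called 0. Again 1 of the 43 had an unadjusted p under 0.05, against 7.23% of all genes. That gene was Psmf1, an inhibitor of the core (-0.65 ± 0.24, limma adjusted p = 0.533), followed by the cap subunit Psmd8 (-0.49 ± 0.27) and the core subunit Psmb1 (-0.33 ± 0.24).

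Loss of YAP changed no proteasome gene past the threshold on either diet. In pair-fed livers limma called 0 of the 43, against 0.00853% of all genes (1 gene), and edgeR called 0. An unadjusted p under 0.05 was reached by 0 of the 43, against 3.13% of all genes. The smallest p belonged to Psmc4, a cap ATPase, with 157.2, 139.0 and 89.9 CPM in control and 143.9, 104.7 and 52.8 CPM in knockout livers (-0.43 ± 0.26, limma adjusted p = 0.999). Psmc5 (-0.35 ± 0.23) and Psme1 (-0.26 ± 0.18) followed. The 95% intervals of all 43 lay within 1 in either direction on the log2(CPM + 1) scale. For Psma8, which is near the floor, this does not bound the fold change. Of the 28 constitutive genes, 25 had a change under 0, with a median of -0.11 against 0.02 for all genes. Without pair-fed control 3, the median over the 43 moved from -0.06 to -0.24.

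In ethanol-fed livers of knockout against control mice, limma called 0 of the 43, against 0.0171% of all genes (2 genes), and edgeR called 0. An unadjusted p under 0.05 was reached by 2 of the 43, both lower, against 8.34% of all genes. Psmb8 measured 40.98, 33.2 and 31.8 CPM in control and 26.2, 28.02 and 13.6 CPM in knockout livers. The groups did not overlap, but the change of -0.68 ± 0.26 was not called (limma adjusted p = 0.517, 95% interval -1.21 to -0.14), and without ethanol-fed knockout 3 it was -0.36. All 9 tested macrophage markers also had negative changes in this comparison, with a median of -0.80 and none called. Psme2b, the uncertain copy, measured 16.03, 13.1 and 16.8 CPM and 13.4, 10.6 and 7.43 CPM (-0.54 ± 0.24, limma adjusted p = 0.574). Psmb6 measured 88.01, 107.4 and 105.8 CPM and 124.5, 119.9 and 130.7 CPM, every knockout value being the higher (0.32 ± 0.16, limma adjusted p = 0.619).

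Overexpression of YAP changed no proteasome gene past the threshold either. In pair-fed livers limma called 0 of the 43, against 0.145% of all genes (17 genes), and edgeR called 0. Of the 43, 5 had an unadjusted p under 0.05 (4 higher and 1 lower), against 8.46% of all genes. The assembly chaperones had the smallest p. Psmg2 measured 13.8, 12.8 and 11.9 CPM in control and 18.4, 24.00 and 21.8 CPM in overexpression livers, without overlap (0.69 ± 0.22, limma adjusted p = 0.328). Psmd10, a chaperone of the cap base, measured 25.6, 21.3 and 15.7 CPM and 27.1, 33.04 and 28.8 CPM (0.51 ± 0.19, limma adjusted p = 0.456). Psmg4 measured 13.3, 14.8 and 12.05 CPM and 17.6, 25.7 and 17.6 CPM (0.55 ± 0.21, limma adjusted p = 0.469). Every overexpression library was higher than every control library for these 3 genes, which were picked by their small p. Of all 43, 4 were higher and 2 were lower without overlap. The share of all genes without overlap was not counted. Without pair-fed overexpression 1 the changes were 0.79, 0.57 and 0.64, none called. Among libraries with Y-linked reads alone, which leaves 1 control, they were 0.59, 0.20 and 0.55, none called. The median change of the 43 was 0.13 with all libraries, against -0.02 for all genes, -0.01 without pair-fed control 3 and -0.04 among libraries with Y-linked reads alone.

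In ethanol-fed livers of overexpression against control mice, limma called 0 of the 43, against 0.102% of all genes (12 genes), and edgeR called 0. Of the 43, 2 had an unadjusted p under 0.05, both lower, against 8.84% of all genes. Psmf1 measured 59.9, 50.8 and 49.1 CPM in control and 38.5, 36.1 and 33.8 CPM in overexpression livers, without overlap (-0.54 ± 0.17, limma adjusted p = 0.272). Psmb10 measured 23.3, 29.5 and 26.2 CPM and 16.6, 23.8 and 13.8 CPM, with overlap (-0.55 ± 0.23, limma adjusted p = 0.477). Psmg2 measured 15.1, 15.4 and 17.5 CPM and 20.8, 19.9 and 24.8 CPM, every overexpression value being the higher (0.42 ± 0.22, limma adjusted p = 0.631). The medians were 0.05 for the 11 core genes, 0.11 for the 17 cap genes and 0.21 for the 6 chaperones.

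Within groups, single libraries differed in the level of the constitutive core and cap genes as a whole. Pair-fed control 3 had the lowest median deviation of the 28 genes from their own means, -0.33 on the log2(CPM + 1) scale, with 1 of the 28 above its mean. Pair-fed control 1, of the same group, stood at 0.20 with 25 of 28 above. Pair-fed knockout 3 stood at -0.27 with 3 above, and pair-fed overexpression 2 was highest at 0.23 with 27 above. By group the mean ran from -0.13 ± 0.21 (SD, n = 3) in pair-fed knockout to 0.13 ± 0.09 in pair-fed overexpression livers, with the other 4 groups between them. The inducible catalytic genes did not follow the constitutive ones in all of these libraries. In pair-fed overexpression 2 they did, with all 3 above their means (median deviation 0.33). In pair-fed knockout 3, where the constitutive genes were low, 2 of the 3 were above (0.31). In pair-fed control 3, where the constitutive genes were lowest, all 3 inducible genes were above their means (median deviation 0.39), and in pair-fed control 1 only 1 of 3 was (-0.12).

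**Figure D4:**
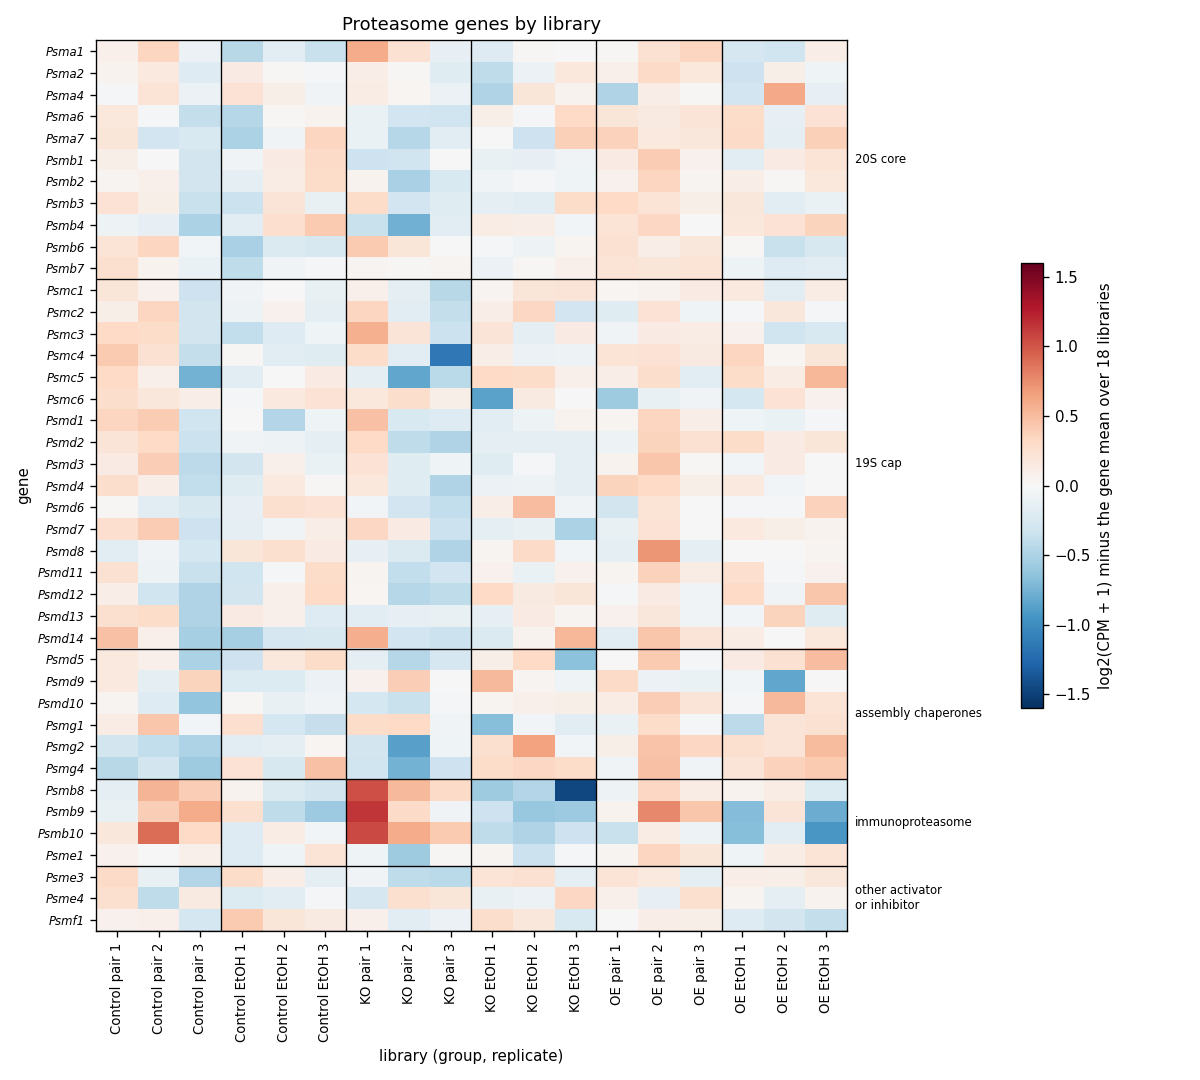
Deviation of log2(CPM + 1) from the mean of each gene over 18 libraries (colour, red above and blue below the mean) for 41 proteasome genes in rows, ordered by role, and the 18 libraries in columns, with lines between groups. The column of pair-fed control 3 is blue for nearly all core and cap genes (median -0.33), and the inducible catalytic genes are red in the pair-fed knockout libraries, except Psmb9 in pair-fed knockout 3, and blue in the ethanol-fed ones.

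The counts of called genes that work beside the proteasome are read against the shares of all genes called after ethanol, 9.9% in knockout, 2.7% in control and 1.15% in overexpression mice. Of 11 tested genes of antigen processing and the interferon response, 0 were called in any of the 3 ethanol comparisons. Most changes were negative in all 3 genotypes. In knockout mice 10 of the 11 were negative (median -0.27, against -0.05 for all genes). In control mice 8 were (-0.11, against -0.09), and in overexpression mice 9 were (-0.17, against -0.07). Tap1, which starts beside Psmb9, changed by -0.22 ± 0.27 (limma adjusted p = 0.653) in knockout mice, and Tapbp, which loads peptides on class I molecules, by -0.57 ± 0.18 (adjusted p = 0.0536). Of 14 tested partners and assembly factors, 1 fell and 1 rose after ethanol in knockout mice. Uchl5, a deubiquitinase of the cap, fell by 0.95 ± 0.29 (limma adjusted p = 0.0418) and Ubqln1, a shuttle for ubiquitinated proteins, rose by 0.71 ± 0.21 (adjusted p = 0.0369). Of 9 tested regulators of proteasome genes, 1 was called. Mafg, a small partner of the factors Nfe2l1 and Nfe2l2, fell by 1.06 ± 0.23 in control (limma adjusted p = 0.0170) and by 0.80 ± 0.23 in knockout mice (adjusted p = 0.0319). Nfe2l1 itself, the factor that raises proteasome genes when proteasome activity drops, changed by -0.10 ± 0.19 in knockout mice. Of 4 tested genes of ubiquitin and its activation, 0 were called in any comparison.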

How the data were processed

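Liver RNA of 18 libraries was read with the Ion AmpliSeq mouse transcriptome panel, which measures 1 amplicon per gene, so levels were not compared between genes. The deposited series table gives CPM, scaled by the authors to the library total. All values in each library were whole multiples of 1 read within 0.02 reads, and these recovered reads (whole in 100.0% of values) were used for edgeR. The library files hold log2(RPM + 1) made by the authors with ampliSeqRNA 5.10.1.2, per the file headers, and differ from log2(CPM + 1) of the deposited table by at most 2.0e-06. The aligner and genome build of the authors are not given in the sources used.

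limma 3.58.1 (lmFit and eBayes with trend, R 4.3.3) was fitted to log2(CPM + 1) with 6 group means over 18 libraries, for 9 contrasts, two-sided, with Benjamini-Hochberg adjustment over 11720 genes within a contrast. The pseudocount of 1 understates changes of low genes. Alternatives were other filters (none, 10 CPM), pseudocounts (0.1, 10), TMM factors, edgeR 4.0.16 (quasi-likelihood), replicate and barcode blocks, a sex-chromosome term, smaller fits and leaving out each library. On counts simulated for ethanol in knockout (11519 genes), limma called 97% of the genes changed 4-fold and 41% of those changed 2-fold. The changed genes were drawn from those at higher CPM, so recovery of low genes was not measured. All unchanged genes had the same mean in every group, and no difference by sex-chromosome pattern was built in.

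The genes and lists were chosen with earlier results of these data known. Named genes are those called in any contrast, the 3 with the smallest p in each contrast, and the immunoproteasome and constitutive catalytic genes. Several related genes were given beside them, chosen after their values were seen. A planned ratio of Psmb8 to Psmb5 was not analysed here. Promoters came from RefSeq (GRCm38.p6); coordinates are of that build.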

Additional observations from a re-analysis of the deposited data

How the results depend on the processing

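Alternatives that moved a result are grouped here. For ethanol in knockout mice, limma called 3 proteasome genes; TMM factors and edgeR each called 5 (Psmb8, Psmb10, Psmg4, Psmg2 and Psmc5), the sex-chromosome term called 0, and leaving out 1 library gave 2 to 4. Psmb8 and Psmb10 kept their call in the 15 other alternatives. All genes called there numbered 1160, against 0 with the sex-chromosome term, 753 in the fit to the compared libraries alone and 621 to 1209 without 1 library. In the other 8 contrasts 0 proteasome genes were called under every alternative.

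The median change of the 43 genes moved by more than the spread of 0.14 between replicates in these cases. For ethanol in control mice it was -0.03, and -0.24 both with the sex-chromosome term and with Y-linked libraries alone (the latter added after seeing the data); without 1 library it ran from -0.19 to 0.067. For ethanol in knockout mice it was 0.11, and -0.19 with the sex-chromosome term. For knockout against control, pair-fed, it ran from -0.24 to -0.0103 without 1 library. For overexpression against control, pair-fed, it was 0.13, and -0.038 both with that term and with Y-linked libraries alone. TMM factors turned the sign of 3 small medians: ethanol in control (0.06), ethanol in overexpression (0.03) and knockout against control, ethanol-fed (-0.03). These factors moved the median of all genes by at most 0.08. The cause of these moves was not tested.

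Replicate numbers did not pair the samples: correlations of same-numbered deviations ran from -0.27 to 0.28, and 3 of 21 were over 0.1. With the replicate block, 3 proteasome genes were called in the ethanol response of knockout mice, as without it (Psmb8, adjusted p = 0.00183), and 1184 genes in all. The fit to the compared libraries alone was not run for the interactions, and the fit to Y-linked libraries could not be made for contrasts with pair-fed knockout. With 3 libraries a group, 2-fold changes were often missed in simulated data.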
